A study of Mus musculus with 6 samples.

Results

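The MHC class II pathway was followed through 7 genes in mouse striatum: Cd74, H2-Aa, H2-Ab1, H2-Eb1, H2-DMa, H2-DMb1 and Ciita. They were chosen by name, out of 55335 gene identifiers measured, and all 7 were found and passed the filter on low counts that left 19809 genes for testing. The RNA came from C57 mouse striatum, the part of the basal ganglia that receives cortical input. There were 3 control samples with the genotype WT and 3 samples overexpressing PDE5A, a phosphodiesterase that breaks down cyclic GMP. The sources used here do not say how PDE5A was overexpressed, what the controls received, or how old the mice were.

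Class II molecules display peptides taken up into endosomes to CD4+ T cells. An α chain (H2-Aa) and its β chain (H2-Ab1) assemble in the endoplasmic reticulum on the invariant chain CD74. H2-Eb1 encodes a β chain with a different α chain as its partner. CD74 blocks the groove of the complex and guides it to endosomes. There CD74 is cut down by proteases, and the DM heterodimer of H2-DMa and H2-DMb1 exchanges its last fragment for antigenic peptide. CIITA, the product of Ciita, is the co-activator that switches the set on. It does not bind DNA itself but joins the RFX, CREB and NF-Y factors bound to the X and Y boxes of class II promoters. In the healthy brain class II is scarce and is known mainly from macrophages at the brain's borders and from activated microglia.

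The 4 genes of the class II chains and their chaperone, Cd74, H2-Aa, H2-Ab1 and H2-Eb1, were each higher in all 3 overexpression samples than in any control, by 2.999-fold to 4.85-fold, but none passed the test over all genes. H2-DMa, H2-DMb1 and Ciita overlapped between the groups, with fitted differences of 0.06 to 0.30 on the log2 scale. Control replicate 3 lay far above the other 2 controls and close to overexpression replicate 1 in Cd74, H2-Aa and H2-Eb1, and the groups were therefore narrowly separated.

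Library totals ran from 33013698 to 42288789 counts. Pde5a, the check of the labels, had 156 to 246 counts in the control libraries and 22170 to 30018 in the overexpression libraries. It was the only one of the 19809 genes past an adjusted p of 0.05 by the edgeR quasi-likelihood F-test (Benjamini-Hochberg adjusted p = 0.000151). Striatal identity was visible in every library, in which 10 markers of medium spiny neurons summed to 3480 to 7188 CPM, that is, counts scaled to a common library size. Markers of tissue next to the striatum differed between libraries. The 9 choroid plexus markers summed to 51.1 to 71.5 CPM in control, to 531 and 2433 CPM in overexpression replicates 1 and 2, and to 32.8 CPM in overexpression replicate 3. The 6 markers of cortical glutamatergic neurons summed to 504, 89.5 and 924 CPM in the controls, by replicate number, against 286, 598 and 1172 CPM in the overexpression samples.

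Promoter windows are shown because class II promoters carry the paired elements that CIITA works through. Each window runs from 250 bases before to 50 bases after a transcript start, from RefSeq on GRCm38.p6, and was matched for 4 of the 7 members: H2-Aa, H2-Eb1, H2-DMa and H2-DMb1. A core of the X box, read as G, any pair of letters, then ACNGATG, and the inverted CCAAT of the Y box, ATTGG, were searched on both strands, and forward-strand matches are in capitals. The windows of H2-Aa (minus strand, chr17:34287774-34288073), H2-Eb1 (plus strand, chr17:34305617-34305916) and H2-DMb1 (plus strand, chr17:34152941-34153240) read as follows.
H2-Aa: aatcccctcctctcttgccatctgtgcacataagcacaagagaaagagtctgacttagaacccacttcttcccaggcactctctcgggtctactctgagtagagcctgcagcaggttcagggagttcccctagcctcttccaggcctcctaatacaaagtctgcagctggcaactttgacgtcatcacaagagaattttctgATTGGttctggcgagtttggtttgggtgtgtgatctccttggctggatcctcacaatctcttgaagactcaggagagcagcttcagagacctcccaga
H2-Eb1: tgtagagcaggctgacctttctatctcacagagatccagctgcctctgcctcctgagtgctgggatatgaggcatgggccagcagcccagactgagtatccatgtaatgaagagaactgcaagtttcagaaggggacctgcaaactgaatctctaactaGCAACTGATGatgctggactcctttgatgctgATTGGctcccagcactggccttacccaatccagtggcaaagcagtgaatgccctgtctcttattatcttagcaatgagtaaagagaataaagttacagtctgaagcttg
H2-DMb1: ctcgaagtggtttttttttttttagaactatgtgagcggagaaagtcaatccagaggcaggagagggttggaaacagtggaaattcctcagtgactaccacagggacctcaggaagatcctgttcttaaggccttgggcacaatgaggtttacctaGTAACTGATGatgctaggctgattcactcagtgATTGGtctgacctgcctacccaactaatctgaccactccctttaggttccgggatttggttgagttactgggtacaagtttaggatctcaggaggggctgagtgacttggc

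H2-Eb1 and H2-DMb1 held both elements in the same order, with 22 and 23 bases between them and the Y box beginning 59 and 61 bases before the start. H2-Eb1 also had 1 ATTGG match on the other strand. H2-Aa held the Y box, beginning 48 bases before the start, and no match to the X core. The search took fixed letters, so an X box with other letters would be missed. Of the 2 windows of H2-DMa, one, which begins within the oppositely transcribed gene Brd2, held neither element and the other held an ATTGG alone, 198 bases before the start. Both lie inside the H2-DMa gene model, beginning at 34122582 and 34125268 where the model begins at 34119541. The rest of that gene was not searched. H2-Eb2, the neighbouring β chain gene that is no member, is shown to compare the stretch from X core to Y box (plus strand, within chr17:34325425-34325724).
H2-Eb1: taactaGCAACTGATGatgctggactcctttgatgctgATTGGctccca
H2-DMb1: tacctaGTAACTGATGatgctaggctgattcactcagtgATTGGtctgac
H2-Eb2: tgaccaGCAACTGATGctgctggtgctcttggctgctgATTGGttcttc

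The X core was found in 2.97% and ATTGG in 37.4% of the 32851 windows of this length. An X core followed on the same strand within 10 to 30 bases by ATTGG, which is how the pair was counted, occurred in 23 windows (0.07%). With the X core shortened to ACNGATG, whose matches include all those of the longer one, the pair occurred in 0.158% of windows. The X core and Y box pair stood in front of H2-Eb1 and of H2-DMb1. H2-Eb1 was one of the genes higher in every overexpression sample, and H2-DMb1 was not. Only 4 of the 7 members had a window, and a link between the pair and the levels was not tested.

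Fold changes are given as log2 differences, overexpression minus control, with their standard error (SE). Cd74 (ENSMUSG00000024610, plus strand, chr18:60803848-60812652 in mm10) encodes the invariant chain. Its levels, here and below in the order of replicates 1 to 3, were 1.76, 1.58 and 4.72 CPM in the controls against 6.28, 13.2 and 11.2 CPM in the overexpression samples. All overexpression samples lay above all controls, but the gap between control replicate 3 and overexpression replicate 1 was smaller than the spread within either group. The group means were 2.69 ± 1.76 and 10.2 ± 3.56 CPM (SD, n = 3). The log2 difference was 1.92 ± 0.50 (SE), with an unadjusted p of 0.00818 and an adjusted p of 1 by edgeR with the Benjamini-Hochberg method.

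H2-Aa (ENSMUSG00000036594, minus strand, chr17:34282744-34287823) encodes the α chain of the I-A molecule. It had 0.644, 0.633 and 1.93 CPM in the controls against 2.08, 4.99 and 5.97 CPM in the overexpression samples. Control replicate 3 and overexpression replicate 1 were nearly level, at 78 and 82 counts, and the other 4 libraries lay well apart on either side. The log2 difference was 2.02 ± 0.58 (SE).

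H2-Ab1 (ENSMUSG00000073421, plus strand, chr17:34257689-34269419) encodes the β chain that pairs with it. It had 0.429, 1.19 and 1.34 CPM in the controls against 1.59, 3.46 and 3.84 CPM in the overexpression samples, a log2 difference of 1.58 ± 0.48 (SE). Here control replicate 2 lay beside control replicate 3, unlike in the other 3 genes, where it lay beside control replicate 1.

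H2-Eb1 (ENSMUSG00000060586, plus strand, chr17:34305867-34316674) encodes the β chain of the I-E molecule. It had 0.381, 0.268 and 1.31 CPM in the controls against 1.57, 4.51 and 3.47 CPM in the overexpression samples. Its log2 difference of 2.28 ± 0.66 (SE) was the highest fitted value of the 7 members. The adjusted p was 1 for H2-Aa, H2-Ab1 and H2-Eb1 by edgeR with the Benjamini-Hochberg method, and the unadjusted values were 0.0110, 0.0129 and 0.0119.

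The partner of the I-E β chain is the α chain gene listed as H2-Ea-ps, annotated as a polymorphic pseudogene. Mice of the C57BL/6 type are known to make no I-E α chain, so that H2-Eb1 RNA there goes without surface I-E. H2-Ea-ps had no count in any of the 6 libraries, which allows up to 0.0709 to 0.0909 CPM per library, for counting error only.

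**Figure D1:**
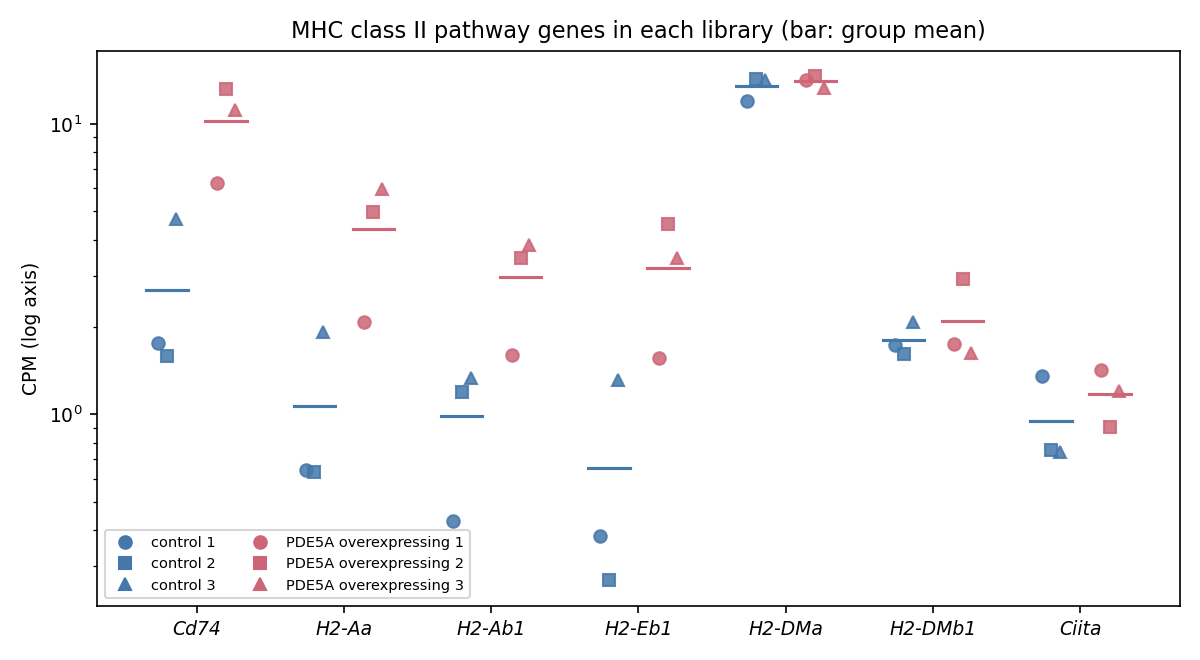
CPM of the 7 class II pathway genes on a log axis, 1 point per library and a bar at each group mean (n = 3). In Cd74, H2-Aa, H2-Ab1 and H2-Eb1 the 3 overexpression points lie above the 3 control points, with control replicate 3 next to overexpression replicate 1, while H2-DMa, H2-DMb1 and Ciita overlap.

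H2-DMa and H2-DMb1 encode the DM chains, which edit the peptides bound to class II. H2-DMa (ENSMUSG00000037649, plus strand, chr17:34119541-34139101) had 11.99, 14.3 and 14.1 CPM in the controls against 14.2, 14.6 and 13.3 CPM in the overexpression samples. Its level was thus nearly flat across all 6 libraries, with a log2 difference of 0.06 ± 0.11 (SE). The gene model overlaps Brd2 on the other strand, which held 39027 counts over the 6 libraries, and the sources used here do not give the strand setting of the counting, so the H2-DMa level is uncertain. H2-DMb1 (ENSMUSG00000079547, plus strand, chr17:34153072-34160230) had 1.74, 1.61 and 2.08 CPM in the controls against 1.75, 2.92 and 1.63 CPM in the overexpression samples. Overexpression replicate 2 was the highest library and replicate 3 of the same group lay within the control range. The log2 difference of 0.21 ± 0.27 (SE) became −0.10 without overexpression replicate 2, −0.15 without overexpression replicates 1 and 2, and −0.18 when the level of choroid plexus markers was a covariate. H2-DMb1 has a close copy, H2-DMb2, with which it may share reads.

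Ciita (ENSMUSG00000022504, plus strand, chr16:10480059-10528418), the co-activator gene, had 1.36, 0.755 and 0.742 CPM in the controls against 1.42, 0.902 and 1.20 CPM in the overexpression samples. Control replicate 1, among the lowest libraries for the class II chains, was the second highest for Ciita. The log2 difference was 0.30 ± 0.33 (SE), with an unadjusted p of 0.391 in the same fit across all genes by edgeR. Ciita overlaps Dexi on the other strand. Adjusted p values for H2-DMa, H2-DMb1 and Ciita were all 1 by edgeR with the Benjamini-Hochberg method.

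Counted over the 7 members, 0 passed the threshold by edgeR in either direction, where 0.00505% of all genes passed. At an unadjusted p under 0.05 there were 4 of 7, all higher in overexpression, beside 2.25% of all genes tested. In the same 4 the groups did not overlap, beside 4.79% of all genes tested that were higher without overlap. The DESeq2 Wald test called 3 of 7 higher, beside 0.384% of all genes. They were Cd74, H2-Eb1 and H2-Aa, with adjusted p of 0.00204, 0.0282 and 0.0213, while H2-Ab1 had 0.152. With limma-voom 0 of 7 passed. All 7 had a positive log2 fold change, beside 50.6% of all genes, with a median of 1.58 beside 0.00. The genes were picked with earlier results of these data known, and these counts describe them and do not test them as a group.

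The size of the difference was set in part by control replicate 3. Without it the log2 differences of Cd74, H2-Aa and H2-Eb1 were 2.61, 2.76 and 3.28, with adjusted p of 0.194, 0.331 and 0.275 by edgeR. Leaving out overexpression replicates 1 and 2, which were high in choroid plexus genes, leaves replicate 3 alone in that group. Its Cd74 and H2-Eb1 were then 2.05 and 2.40 higher than in the controls on the log2 scale, values that rest on 1 library. With all libraries and the level of choroid plexus markers as a covariate, Cd74 and H2-Eb1 were 1.91 and 2.20 higher. With the cortical neuron level as a covariate, a setting chosen after seeing the data, they were 1.71 and 2.03.

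**Figure D2:**
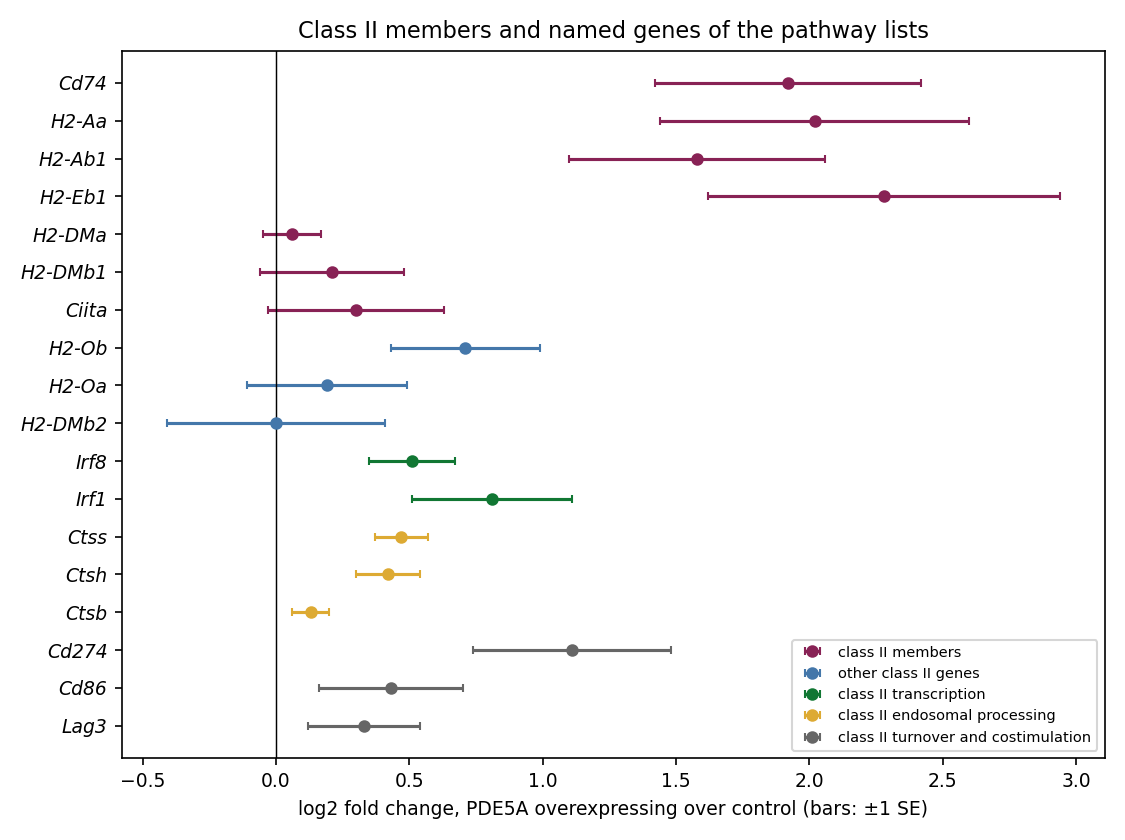
Log2 fold change, overexpression over control, with bars of 1 SE, for the 7 members and up to 3 genes with the smallest p in each of 4 further pathway lists. Cd74, H2-Aa, H2-Ab1 and H2-Eb1 lie between 1.58 and 2.28, apart from H2-DMa, H2-DMb1 and Ciita at 0.06 to 0.30.

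The proportions of the 4 genes to one another varied less between libraries than their sum did, apart from H2-Ab1 in 1 library. Summed over Cd74, H2-Aa, H2-Ab1 and H2-Eb1, the level was 3.22, 3.68 and 9.30 CPM in the controls against 11.5, 26.1 and 24.45 CPM in the overexpression samples. Per 100 Cd74 counts there were 33.1 to 53.5 H2-Aa counts and 16.9 to 34.2 H2-Eb1 counts over the 6 libraries. H2-Ab1 gave 24.3 to 34.4 per 100 in 5 libraries and 75.4 in control replicate 2, where it had 49 counts beside 65 of Cd74. Cd74 made up 43.1% to 54.8% of the 4 genes' counts, and the ranges of the groups overlapped.

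Levels can be compared between genes only per length, here as CPM per kilobase of the gene's merged exons. In control H2-DMa had the highest level per length, 3.91 ± 0.374, followed by Cd74 at 1.60 ± 1.05 and H2-DMb1 at 1.08 ± 0.144 (SD, n = 3). The place of H2-DMa is uncertain, since its gene model overlaps Brd2 and the strand setting of the counting is not known. H2-Ab1, H2-Eb1 and H2-Aa followed at 0.384 ± 0.190, 0.336 ± 0.294 and 0.281 ± 0.196, and their libraries overlapped. Ciita was the lowest at 0.0998 ± 0.0370. Cd74 and H2-DMb1 overlapped as well, whereas every control library had more H2-DMa than Cd74 per length. In overexpression Cd74 stood first at 6.08 ± 2.12, overlapping H2-DMa at 4.07 ± 0.1996. H2-Eb1 at 1.64 ± 0.766, H2-DMb1 at 1.25 ± 0.423, H2-Ab1 at 1.15 ± 0.468 and H2-Aa at 1.14 ± 0.534 overlapped one another, and Ciita was again lowest at 0.123 ± 0.0272. With the longest transcript as the length, H2-Ab1 had 2.45 and H2-Eb1 1.91 in overexpression, so that order depended on the length used.

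**Figure D3:**
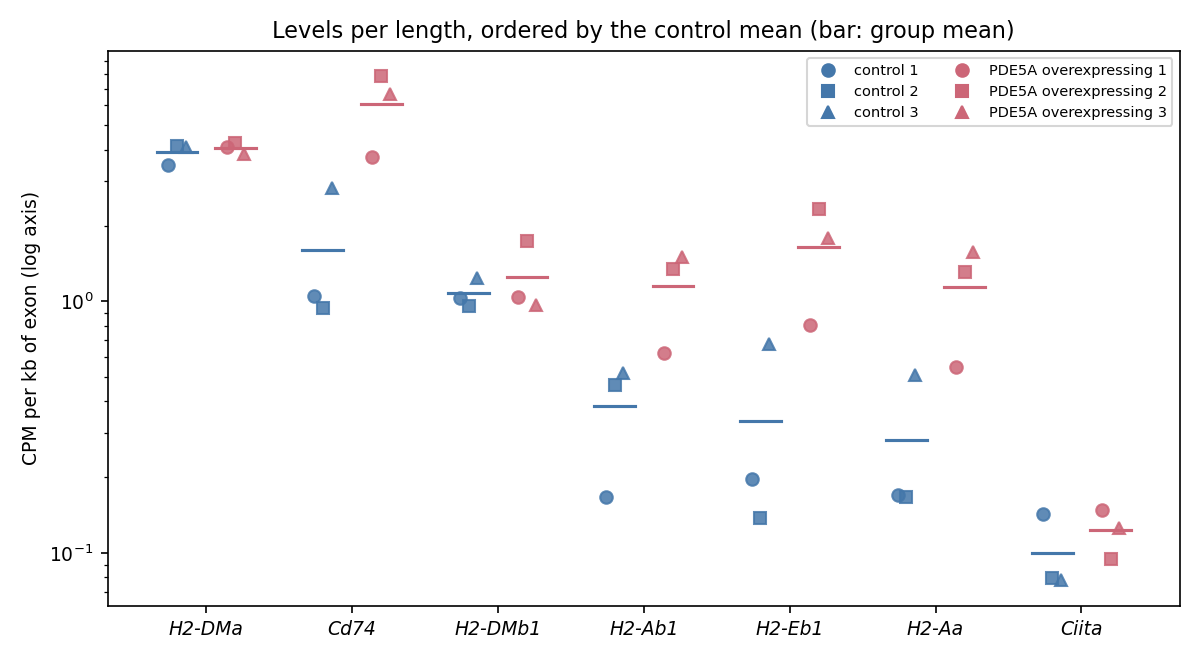
CPM per kilobase of merged exons on a log axis, genes ordered by their control mean, 1 point per library and a bar at each group mean (n = 3). In control H2-DMa lies above Cd74 in every library (3.91 against 1.60 on average), while in overexpression their points overlap and Cd74 has the higher mean. The H2-DMa level is uncertain because its gene model overlaps Brd2 on the other strand.

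Of the other class II genes, 6 were found and 3 were tested: H2-Ob, H2-Oa and H2-DMb2. H2-Oa and H2-Ob encode the DO chains, which restrain DM. H2-Ob had 1.12, 0.755 and 0.668 CPM in the controls against 1.39, 1.56 and 1.23 CPM in the overexpression samples, a log2 difference of 0.71 ± 0.28 (SE) without overlap between the groups. H2-Oa had a log2 difference of 0.19 ± 0.30 (SE) and H2-DMb2 one of 0.00 ± 0.41 (SE), and both overlapped. H2-Eb2 had 2 and 7 counts in overexpression replicates 1 and 2 and none elsewhere. Among these tested genes 0 of 3 passed by edgeR, and their median was 0.19.

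Of 15 genes for factors that act with or upstream of CIITA, 0 passed in either direction, 12 had positive fold changes and the median was 0.07. Irf8 and Irf1 were among the 3 with an unadjusted p under 0.05 by edgeR, all higher, beside 2.25% of all genes tested. Irf1, a factor that acts on the interferon-responsive promoter of Ciita, had 3.46, 4.12 and 4.77 CPM in the controls against 4.08, 9.19 and 8.35 CPM in the overexpression samples, and the groups overlapped. Irf8, a factor of myeloid cells, had a log2 difference of 0.51 ± 0.16 (SE). The subunits that bind the X box, Rfx5, Rfxap and Rfxank, had log2 differences of 0.01, 0.06 and −0.08. They are named here outside the rule for choosing genes, as the DNA-binding partners of CIITA.

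Among 9 genes of endosomal processing, 8 were positive with a median log2 difference of 0.13, and 0 passed in either direction. Ctss, the cathepsin that trims the invariant chain in antigen-presenting cells, had 89.6, 78.4 and 91.9 CPM in the controls against 122, 131 and 105 CPM in the overexpression samples. Its log2 fold change was 0.47 ± 0.10 (SE), with an adjusted p of 0.824 by edgeR and 0.0282 in the DESeq2 Wald test. Ctsh and Ctsb, further cathepsins, had log2 differences of 0.42 ± 0.12 (SE) and 0.13 ± 0.07 (SE). The groups did not overlap in these 3 genes, which were named for the smallest p of the list. In the whole list 4 of 9 were higher without overlap, beside 4.79% of all genes tested. Overexpression replicate 3, high in the class II chains, was the lowest overexpression library for Ctss and Ctsh.

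The 9 genes of class II turnover, costimulation and recognition were all positive with a median log2 difference of 0.16, and 0 passed in either direction. Cd274, the ligand of the inhibitory receptor PD-1, had 2.41, 1.71 and 3.49 CPM in the controls against 3.09, 6.82 and 6.51 CPM in the overexpression samples, a log2 difference of 1.11 ± 0.37 (SE) with overlap. Cd86, a costimulatory ligand, and Lag3, a receptor for class II, had log2 differences of 0.43 ± 0.27 (SE) and 0.33 ± 0.21 (SE), also with overlap.

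Class II is made by few cell types, and in bulk tissue more such cells and more class II RNA per cell cannot be told apart. The 8 microglia markers summed to 458, 431 and 445 CPM in the controls against 511, 484 and 387 CPM in the overexpression samples, where the library with the lowest sum, overexpression replicate 3, was among the 2 highest for class II. The 8 border macrophage markers summed to 10.1 to 17.2 CPM in the controls against 7.81 to 17.7 CPM in the overexpression samples, and the 10 dendritic cell markers to 32.1 to 36.0 and 34.7 to 36.3 CPM. Both pairs of ranges overlapped. Siglech alone made up most of the dendritic cell sum, with means of 21.44 CPM in the controls and 21.4 CPM in the overexpression samples. Xcr1, Clec9a, Cd209a, Ccr7 and Clec10a each had at most 0.487 CPM in any library. The dendritic cell sum therefore cannot show whether these low markers differed between the groups. Within the dendritic cell list Xcr1 had no count in any control library and at most 3 elsewhere, and Cd209a had 12 counts in overexpression replicate 3 alone. Itgax, also made by activated microglia, had 0.268 to 0.841 CPM in the controls against 1.04 to 1.54 CPM in the overexpression samples. It was the 1 gene without overlap among the 5 tested of the dendritic cell list. Over all genes tested, 4.79% were higher without overlap. Of the 5 tested dendritic cell markers, 3 had positive log2 differences, while Flt3 and Siglech had −0.16 and −0.00.

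The summed lymphocyte and monocyte markers did separate the groups, at low levels, although not every single marker did. The 6 B cell markers, B cells being class II-positive, summed to 1.02 to 1.45 CPM in the controls against 1.92 to 3.82 CPM in the overexpression samples. The 9 T cell markers summed to 4.99 to 8.75 and 10.8 to 18.0 CPM, with Cd3d at 0 in control replicates 1 and 2. The 7 markers of monocytes and neutrophils summed to 1.61 to 2.497 and 3.85 to 6.79 CPM, with Cd177 at 0 in every library. Of the members of these 3 lists, 0 passed by edgeR over all genes. An unadjusted p under 0.05 by edgeR was found for 5 of 8 tested T cell, 1 of 3 B cell and 2 of 5 monocyte markers. All of these were higher in overexpression, beside 2.25% of all genes tested. The groups did not overlap in 6, 1 and 2 of these tested markers, beside 4.79% of all genes tested that were higher without overlap. The part of these cells in the class II levels was not tested.

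**Figure D4:**
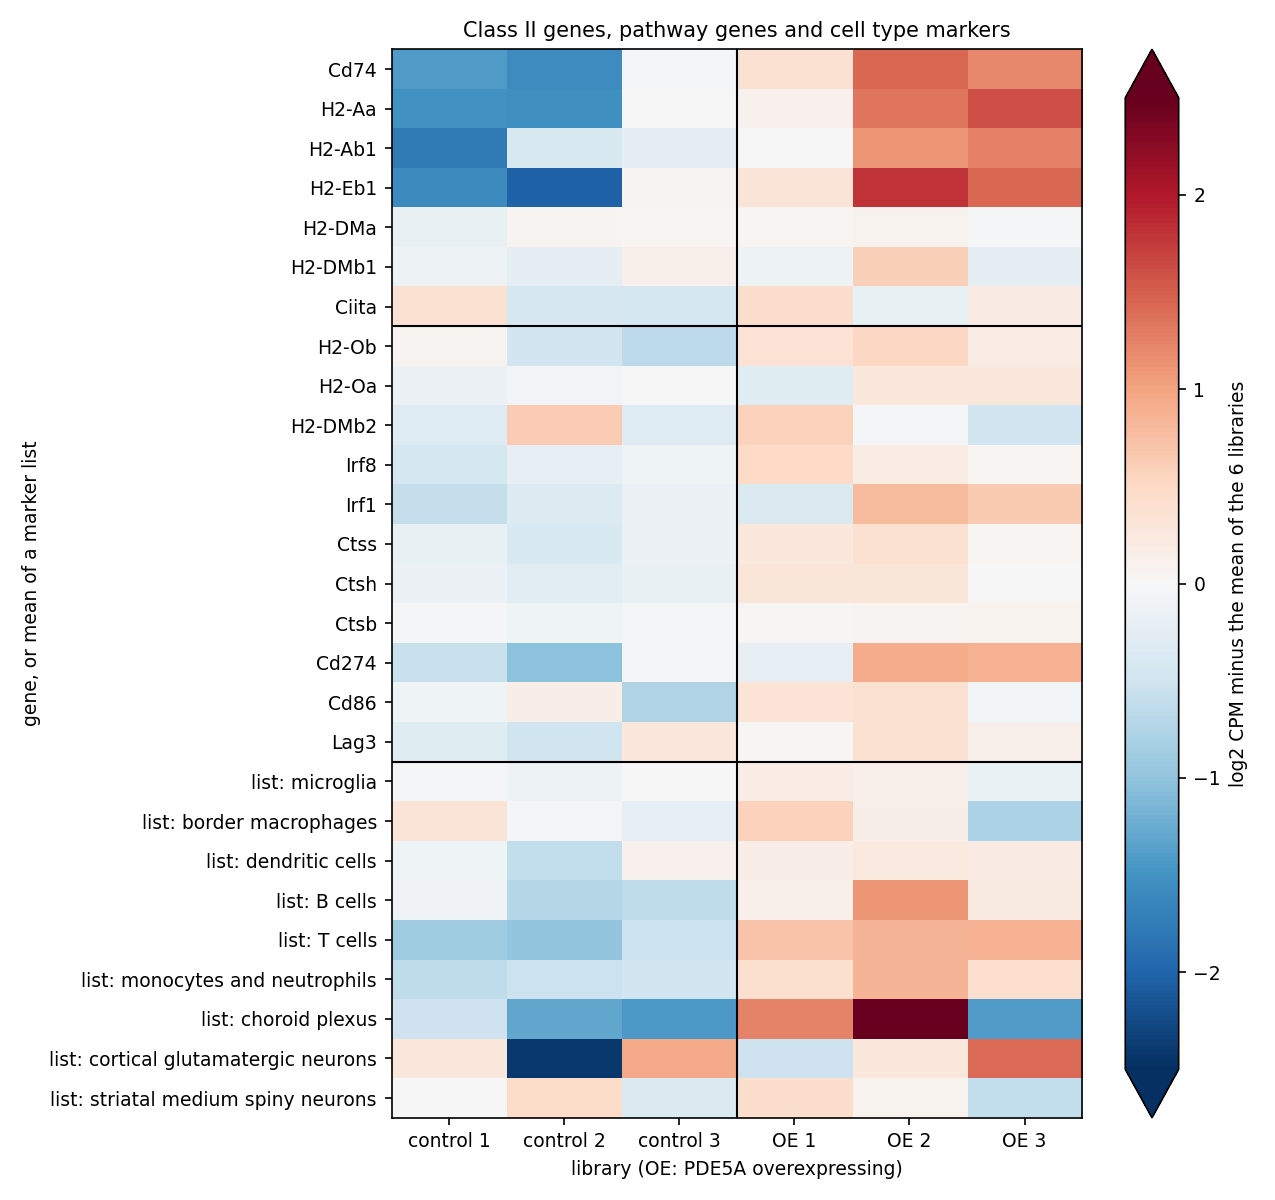
Log2 CPM of each gene, or of the mean of a marker list, minus its mean over the 6 libraries, on a color scale from blue (lower) to red (higher). Cd74, H2-Aa and H2-Eb1 are low in control replicates 1 and 2, near their mean in control replicate 3 and overexpression replicate 1, and high in overexpression replicates 2 and 3. The choroid plexus, cortical and microglia lists do not share that order. The T cell, B cell and monocyte lists are lower in every control than in any overexpression library. Among the controls the T cell list is highest in replicate 3.

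The mean profile of the 7 members, each centred on its own mean, was −0.89, −0.88 and −0.07 on the log2 scale in the controls against 0.17, 0.89 and 0.78 in the overexpression samples. Among 16021 other tested genes with a mean of at least 1 CPM, the 10 with the smallest root-mean-square difference from it over the 6 libraries were Gbp3, B2m, H2-K1, Irgm1, Gbp4, Parp10, Ifit3b, AW112010, H2-D1 and C1s1. The difference ran from 0.0737 for Gbp3 to 0.195 for C1s1. Single members lay 0.468 to 0.765 from their own mean profile, with 4 of them varying more widely between libraries and 3 less. Gbp3 had 4.10, 4.53 and 7.69 CPM in the controls against 10.02, 15.2 and 13.3 CPM in the overexpression samples. B2m, which encodes β2-microglobulin of class I, had 58.7, 54.0 and 91.8 CPM in the controls against 124, 170 and 159 CPM in the overexpression samples. H2-K1 and H2-D1, whose counts may be shared with other class I heavy chains, had log2 differences of 1.29 ± 0.22 (SE) and 1.38 ± 0.32 (SE). None of the 10 passed the test over all genes, with adjusted p of 0.699 to 1 by edgeR with the Benjamini-Hochberg method.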

How the data were processed

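Striatal RNA-seq of 3 control and 3 PDE5A-overexpressing samples, grouped by title, was used. Per the labels' protocols, strand-specific TruSeq libraries were made from Trizol-isolated total RNA. The deposited files hold whole-number counts per Ensembl gene, without normalization. The submitters' processing notes list mm10 and, with no roles assigned, STAR 2.5.3a, FastQC 0.11.5, DESeq 1.16.1 and Cuffnorm. The counting program and its strand setting are not given there. The labels do not say whether samples came from separate animals, so the spread that p-values rest on may be technical. Replicates differed beyond sampling noise (chi-square per degree of freedom of at least 20.3).

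Symbols, coordinates and exon lengths came from GENCODE M21 on the same assembly, and promoter windows from RefSeq. Groups were compared with edgeR 4.0.16 in R 4.3.3 (TMM, filterByExpr, robust quasi-likelihood F-tests, two-sided, Benjamini-Hochberg over 19809 genes, threshold 0.05), after a check on simulated counts. SEs are the absolute log2 fold change over the square root of F. CPM values use TMM-adjusted library sizes, and log2 CPM a prior count of 2. Alternatives used DESeq2 1.42.0, limma 3.58.1, other scalings and filters, a replicate block, covariates and libraries left out. The members and gene lists were chosen with earlier results of these data known. Named are all members, Pde5a, the 3 smallest p per pathway list, the 10 nearest profiles and, of markers, Itgax for its p. Other genes, such as those at or near 0, were named after their values were seen. Some listed genes are not reported here.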

Additional observations from a re-analysis of the deposited data

How the results depend on the processing

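Across 17 other settings the number of members past the threshold was 0 except with the DESeq2 Wald test, where it was 3. The median log2 fold change of the members lay between 1.23 and 1.96 except with at least 1 CPM required in every library. There it was 0.21, since H2-Aa, H2-Ab1, H2-Eb1 and Ciita were no longer tested. Cd74, H2-Aa, H2-Ab1 and H2-Eb1 kept a positive direction in every setting in which they were tested, with log2 fold changes of 1.65 to 2.61, 1.69 to 2.76, 1.23 to 1.96 and 1.91 to 3.28. When 1 library was left out, H2-DMa took −0.01 to 0.10, H2-DMb1 −0.10 to 0.36 and H2-DMb2 −0.36 to 0.42. The direction of H2-DMa turned without control replicate 1 (−0.01) and without both libraries high in choroid plexus markers, which leaves overexpression replicate 3 alone (−0.02). That of H2-DMb1 turned without overexpression replicate 2 (−0.10), without both of those libraries (−0.15) and with their marker level as a covariate (−0.18). H2-DMb2, at 0.00, took values of −0.00 without a filter, −0.16 without control replicate 1 or control replicate 3, −0.36 without overexpression replicate 1, −0.62 without both choroid plexus libraries and −0.19 with that covariate. The median of the turnover and costimulation genes, 0.16, was 0.15 to 0.29 when 1 library was left out and 0.25 without both choroid plexus libraries. The causes were not tested. With a prior count of 0.5, 9 of the 10 nearest profiles were shared.

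Samples with the same replicate number deviated together with correlations of −0.02, 0.027 and 0.292, so the numbers were not taken as pairing them. With the replicate block 0 members passed, their median was 1.63, and Cd74 had a log2 fold change of 2.01. At 11 to 439 counts per library, Cd74 and the class II chains are also limited by counting error.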
